A study of Rattus norvegicus with 4 samples.

Results

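Cadherins and protocadherins are calcium-dependent adhesion molecules of the cell surface, and 81 of the 14485 gene names measured here belonged to them. Members were the rows whose symbol starts with Pcdh or is Cdh followed by a number, with Pcdh15, Cdh23, Cdh5 and rows without a value left out. They were 4 type I cadherins, 12 type II cadherins, 2 other cadherins, 11 non-clustered protocadherins and 52 clustered protocadherins (14 alpha, 22 beta and 16 gamma). RNA sequencing had been run on eye and on retina of wild-type rats of the pigmented Long Evans strain, with RNA of 5 rats pooled for each library. The sources used here do not give age or sex. The labels list 2 technical replicates per tissue and name the same file for both, so each tissue is 1 column of values from pooled RNA, called its library here. The differences therefore lack a replicate check, and no p-value was computed. Values are treated as RPKM (reads divided by the length of the gene model and the total of the library), which was inferred from the numbers themselves.

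Classical cadherins (types I and II) bind the same or a related cadherin on the next cell and are tied to actin through catenins. In the nervous system they help sort neurons and their synaptic layers. Protocadherins lack the catenin-binding tail. The clustered ones are made from tandem arrays of variable exons with stochastic promoter choice, and in mouse retina the gamma array is known for the self-avoidance of starburst amacrine dendrites and for the survival of interneurons.

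Scaling had been to totals of 28071917 reads for eye and 51944762 for retina. Of 11 photoreceptor markers, 7 were at least 2-fold lower in eye and none was higher, and their values summed to 10750 in eye and 21040 in retina. Inner retinal neuron markers summed to 650 and 1135, with 3 of 11 lower and 0 higher. Genes of tissues around the retina were far higher in the eye library. Lens markers were higher in 17 of 18 cases (summed value 187770 in eye and 2062 in retina), melanin markers in 8 of 8 (1010 and 90.5), and pigment epithelium markers in 5 of 7 (1444 and 470). Beside these and the marker counts below, 17.8% of the 13259 genes tested were at least 2-fold higher in eye and 7.95% lower. None of the markers named here was at 0 in either library. The sample descriptions name retina mRNA for all samples although the tissue labels differ. Fewer cells of a type and less RNA per cell cannot be told apart in such libraries.

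Cadherins and protocadherins were of modest abundance. The median member had a value of 1.27 in eye and 1.74 in retina, whereas the median of all genes was 8.75 in eye and 8.11 in retina. Only 4 members reached 10 in the eye library and 8 did in retina. The 5 highest were Cdh2, Cdh11, Cdh1, Pcdhgc3 and Pcdh1 in eye, with 41.0% of the members' summed value, and Cdh2, Pcdh8, Cdh24, Pcdh10 and Cdh11 in retina, with 35.1%. Cdh2 alone held 15.7% of that sum in eye and 13.6% in retina.

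Differences were computed as log2((eye + 0.1)/(retina + 0.1)) and called at a fold of at least 2, among genes that reached 1 in at least 1 of the libraries. Of the 81 members, 59 passed that minimum, 9 of them through the retina library only and 2 through the eye library only. Called higher in eye were 3 members, against 17.8% of all tested genes, and called lower were 6, against 7.95%. The 3 were Cdh1, Cdh3 and Cdh19, and the 6 were Cdh22, Cdh24, Pcdh8, Pcdh24, Pcdha7 and Pcdhga4. Among them, Cdh19 passed the minimum through the eye library only, and Pcdha7 and Pcdhga4 through the retina library only. Such genes could enter only with the higher value in that library. With totals that left out lens genes the split was 4 higher and 4 lower, beside 21.2% and 4.07% of all tested genes. With both libraries scaled to equal summed values it was 2 higher and 29 lower, where 11.5% and 32.2% of all tested genes were called. Those scalings moved the log2 ratio by 0.20 and -0.64 before 0.1 was added. Tested members had a median log2 fold of -0.40, and all tested genes one of -0.01, a difference of -0.39 that was -0.08 over the 15 members left at a minimum of 5. At a fold of 4, Cdh19 was the 1 member higher (9.07% of all tested genes were) and 0 members were lower (0.0905% were).

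**Figure D1:**
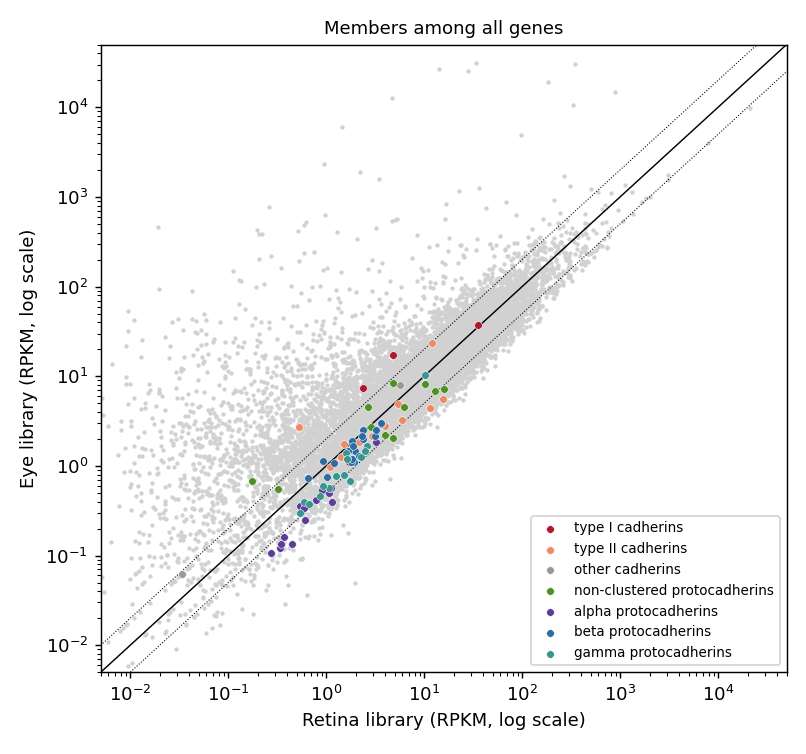
Value in the eye library (vertical) against the retina library (horizontal), both RPKM on log axes, for genes above 0 in both. Gray points are all genes and coloured points the members by family. The solid line marks equal values and the dotted lines a 2-fold difference. Most members lie between the dotted lines, and Cdh1, Cdh3 and Cdh19 lie above the upper line.

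Exact 95% intervals of the fold were made from whole reads recovered from the values. They cover counting error only and compare the libraries, not the tissues. The reads are the smallest whole numbers that match the values. Where the real reads were a multiple of these, the interval is wider than counting error alone and may hold 1 where the full reads would not. Over all 79 members with reads, the interval lay wholly above 1 for 9 members and wholly below 1 for 47, where 40.4% and 39.5% of all genes with reads did so. Among the 59 tested members alone these were 7 and 33 (41.4% and 42.1% of all tested genes with reads), and 46 of the 59 had the lower value in eye (50.7% of all tested genes). That tally moved with the scaling, since 8 of the 46 turned to the higher value in eye with totals that left out lens genes, and 7 of the other 13 turned to the lower value with equal summed values. Of the 33 tested clustered protocadherins 29 had the lower value in eye, and of the 26 tested members outside the clusters 17 had. Clustered genes, which are not independent of each other, gave 35 of the 47 intervals below 1. The 29 members outside the clusters had 12 intervals below 1 and 9 above.

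Of the 4 type I cadherins, 2 were called higher in eye and 0 lower, beside 17.8% and 7.95% of all tested genes. Cdh1 encodes E-cadherin, the adhesion protein of epithelial adherens junctions. Its value was 17.4 in eye and 4.86 in retina, 3.59-fold higher in eye (interval 3.34 to 3.86). Cdh3, P-cadherin of basal epithelia and pigment epithelium, was at 7.37 in eye and 2.41 in retina, 3.07-fold higher (interval 2.70 to 3.48). With equal summed values Cdh3 was just short of the threshold (log2 fold 0.95) while Cdh1 passed it (1.19). Corneal and conjunctival epithelium markers were higher in eye in 9 of 10 cases, with a summed value of 5006 in eye and 49.8 in retina and none at 0. Their part in the values of Cdh1 and Cdh3 was not tested.

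Cdh2 encodes N-cadherin, the cadherin of neural retina, lens and many other tissues. It was the member with the highest value in both libraries, at 37.0 in eye and 35.9 in retina. The fold of 1.03 had an interval of 0.994 to 1.07 that held 1, and its sign turned with equal summed values (log2 fold -0.59). Cdh15, M-cadherin, is known from muscle satellite cells and cerebellum. It was at 1.11 in eye and 1.70 in retina, lower in eye by 1.53-fold (interval 1.19 to 1.99) and not called. Skeletal muscle markers in the same libraries were higher in eye in 11 of 11 tested cases, with a summed value of 3558 in eye and 13.1 in retina. Cdh4 was not analysed here.

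**Figure D2:**
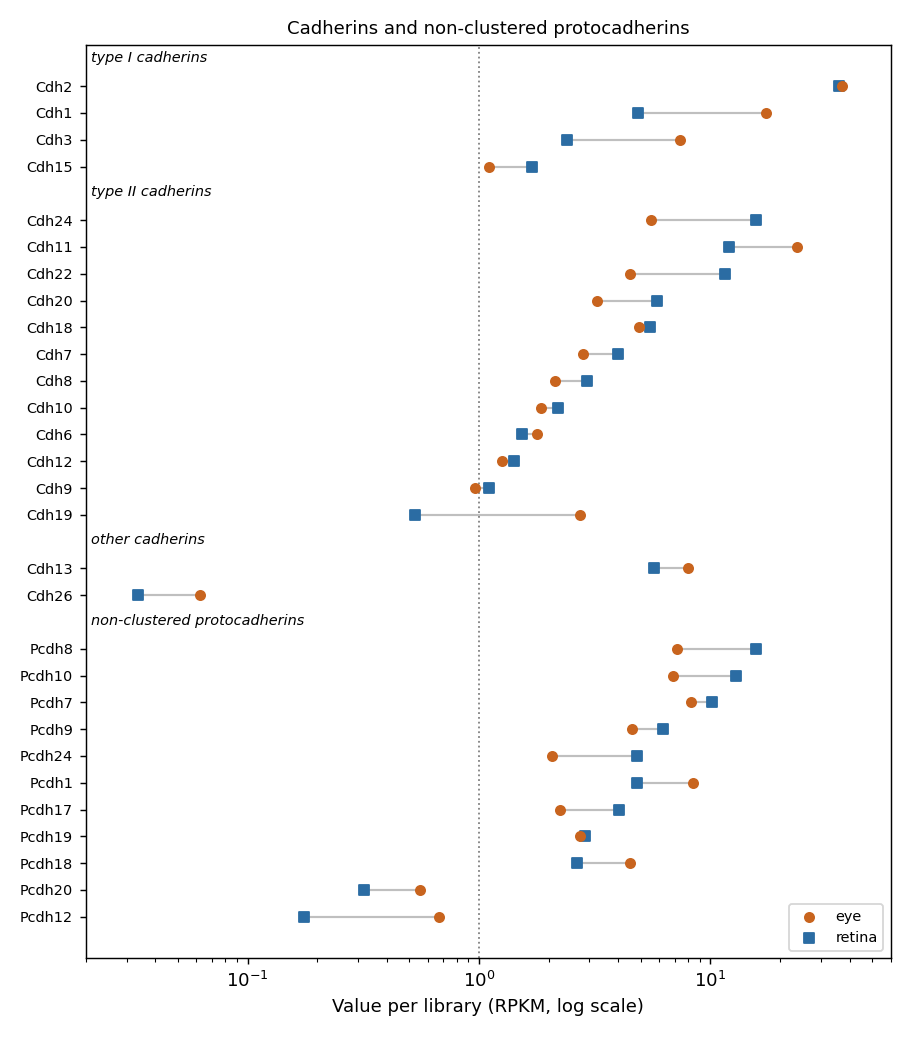
Value of each cadherin and non-clustered protocadherin in the eye library (circles) and the retina library (squares), in RPKM on a log axis, by family and in order of the retina value. The dotted line marks the minimum of 1. Cdh1, Cdh3, Cdh11 and Cdh19 lie to the right in eye, and Cdh22, Cdh24, Pcdh8 and Pcdh24 in retina.

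Of the 12 type II cadherins, 3 had the higher value in eye and 9 the lower, with 1 and 2 of them called. Of all tested genes, 17.8% were called higher and 7.95% lower. Cdh19, a cadherin of the Schwann cell lineage, was at 2.74 in eye and 0.530 in retina. Its ratio of 5.18 (interval 3.87 to 7.0) was the highest of any tested member, with 179 and 64 recovered reads. It passed the minimum through the eye library only. Myelin and Schwann cell markers were higher in eye in 10 of 10 tested cases, with a summed value of 349 in eye and 34.8 in retina and none at 0, and their part in the value of Cdh19 was not tested. Cdh11 (OB-cadherin), a cadherin of mesenchyme and bone-forming cells, had 23.7 in eye and 12.0 in retina. The fold of 1.98 (interval 1.89 to 2.08) was just short of the threshold, with a log2 fold of 0.98, and passed it with totals that left out lens genes (1.18). Stroma and fibroblast markers were higher in eye in 9 of 10 cases, with a summed value of 2266 in eye and 28.8 in retina and none at 0. Whether they bear on the value of Cdh11 was not tested.

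Cdh24 and Cdh22 were the type II cadherins called lower. Cdh24 was at 5.53 in eye and 15.7 in retina, lower in eye by 2.85-fold (interval 2.55 to 3.20). Cdh22, also called PB-cadherin from its discovery in rat pituitary and brain, was at 4.47 in eye and 11.6 in retina, 2.59-fold lower (interval 2.33 to 2.89). Both stayed past the threshold when the totals were taken without lens genes (log2 folds -1.30 and -1.16) or when 1 was added to each value. For comparison, the median log2 fold was -0.80 for the inner retinal neuron markers and -1.03 for the photoreceptor markers, and the part of these cells in the values of Cdh24 and Cdh22 was not tested. Cdh20 was next, at 3.23 in eye and 5.89 in retina, 1.83-fold lower (interval 1.47 to 2.28) and not called.

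The other type II cadherins were at low values and none was called. In mouse, Cdh8 and Cdh9 mark different bipolar cell types and guide their axons to separate sublayers of the inner retina. Cdh8 was at 2.14 in eye and 2.93 in retina, with an interval of 1.14 to 1.65 for the fold lower in eye. Cdh9 had 0.965 in eye and 1.10 in retina, and its interval held 1 (0.869 to 1.51). Cdh7 was at 2.82 in eye and 4.0 in retina, with an interval of 1.19 to 1.69, so that it resembled Cdh8 in the size of its fold. Cdh18 had 4.93 in eye and 5.47 in retina, with an interval of 0.903 to 1.36 for the fold lower in eye. Cdh10 had 1.85 and 2.19. Cdh12 had 1.25 in eye and 1.41 in retina. The intervals of these 3 held 1, and with totals that left out lens genes the sign of Cdh9, Cdh12 and Cdh18 turned. Cdh6, which in mouse marks ganglion cells that respond to vertical motion, was at 1.78 in eye and 1.53 in retina. Its interval (0.959 to 1.41) held 1 too, and its sign turned with equal summed values.

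Cdh13 (T-cadherin) has no cytoplasmic tail, is held in the membrane by a lipid anchor and binds adiponectin. It was at 7.98 in eye and 5.70 in retina, a ratio of 1.40 (interval 1.27 to 1.54) that was not called and fell below 1 with equal summed values. Cdh26 was near the floor of the data, at 0.0623 in eye and 0.0337 in retina, each standing for as few as 2 reads.

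Non-clustered protocadherins are single genes, grouped by their tails into the delta-1 and delta-2 types. The 3 delta-1 genes had nearly the same summed value in both libraries, 21.3 in eye and 21.3 in retina, while the 5 delta-2 genes summed to 23.5 in eye and 38.3 in retina. Among delta-1 genes, Pcdh1, which is well known from airway epithelium, was at 8.44 in eye and 4.81 in retina, a ratio of 1.75 (interval 1.61 to 1.92). Pcdh7 was at 8.27 in eye and 10.2 in retina, with a fold lower in eye of 1.23 (interval 1.14 to 1.34). Pcdh9 was at 4.60 in eye and 6.26 in retina, with a fold lower of 1.36 (interval 1.25 to 1.48). The equal sums of the delta-1 genes thus joined 1 gene with its higher value in eye and 2 with theirs in retina, none of them called.

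Pcdh8 (arcadlin in rat), a delta-2 protocadherin induced by neuronal activity that drives internalization of N-cadherin at synapses, was called lower. Its value was 7.19 in eye and 15.8 in retina, lower in eye by 2.20-fold (interval 2.00 to 2.41), and it fell short of the threshold with totals that left out lens genes (log2 fold -0.93). Pcdh10, which recruits the WAVE actin regulators, was at 6.89 in eye and 12.9 in retina, 1.87-fold lower (interval 1.74 to 2.03) and not called. Pcdh17 was at 2.24 in eye and 4.02 in retina, 1.79-fold lower (interval 1.57 to 2.05). Of the other delta-2 genes, Pcdh18 had its higher value in eye and Pcdh19 differed little. Pcdh18 was at 4.49 in eye and 2.65 in retina, a ratio of 1.70 (interval 1.52 to 1.90). Pcdh19, the X-linked gene of a human epilepsy, was at 2.73 in eye and 2.88 in retina, with an interval (0.825 to 1.09) that held 1, and its sign turned with totals that left out lens genes (log2 fold 0.11).

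Pcdh24 stands in the RefSeq table as Cdhr2, a cadherin of brush border microvilli. It was at 2.07 in eye and 4.83 in retina, lower in eye by 2.33-fold (interval 2.02 to 2.70), and lost its call when the totals were taken without lens genes (log2 fold -0.99) or when 1 was added to each value (-0.92). Pcdh12, a protocadherin of endothelial cells, was below the minimum at 0.673 in eye and 0.175 in retina, from 79 and 38 reads (ratio 3.85, interval 2.58 to 5.82). Of 7 endothelial markers, 4 were higher in eye, with a summed value of 117 in eye and 60.1 in retina and none at 0. Their part in the value of Pcdh12 was not tested. Pcdh20 was below the minimum too, at 0.557 in eye and 0.320 in retina.

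**Figure D3:**
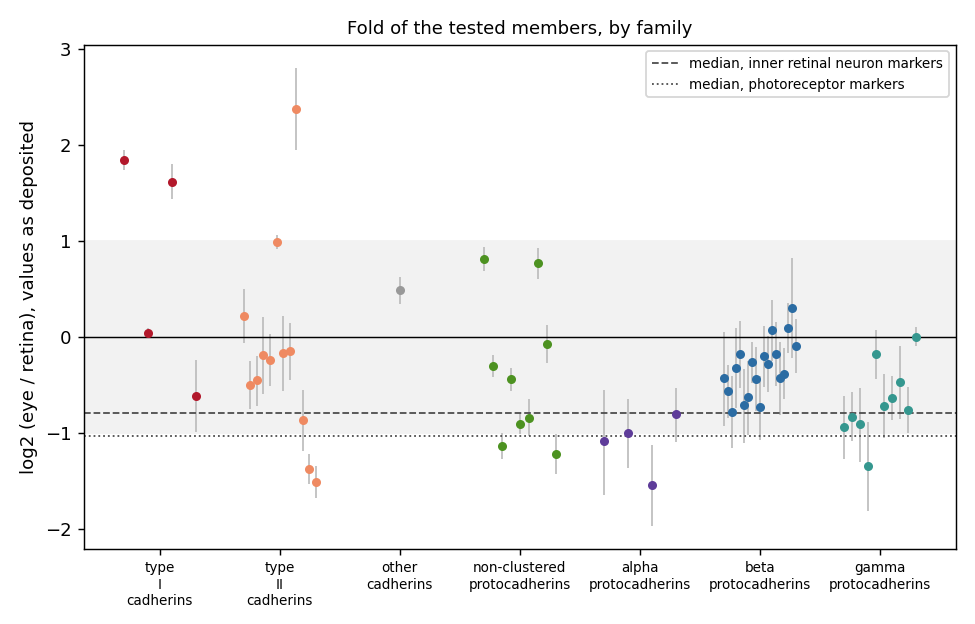
Log2 of the eye value over the retina value, as deposited, for the tested members, by family. Each point is 1 gene, bars are exact 95% counting intervals from the smallest matching reads, and the shaded band marks folds under 2. The broken lines mark the medians of the inner retinal neuron markers (-0.80) and the photoreceptor markers (-1.03). The 4 tested alpha protocadherins all lie below 0. Of them, Pcdha3, Pcdha4 and Pcdha7 passed the minimum through the retina library only, so they could lie nowhere else. Tested beta protocadherins spread around a median of -0.31.

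The clustered protocadherins had lower values in the eye library in 45 of 52 cases and higher ones in 5, with 2 listed at 0 in both. For all gene names the value was lower in eye in 49.6%. From the smallest matching reads, the interval of the fold lay below 1 for 35 of the 50 with reads and above 1 for 0. For Pcdhb5 the smallest gene model length compatible with the values was 861 bases, while its RefSeq length is 2583. Its real reads may thus be a multiple of those used, and its interval narrower. Of the 33 tested clustered genes 2 were called, Pcdha7 and Pcdhga4, both lower, a share of 6.06% near the 7.95% of all tested genes. Both passed the minimum through the retina library only, so they could enter only with the lower value in eye. All of the 52 but Pcdhb18 and Pcdhgb2, which had no match, lie on rat chromosome 18 in the RefSeq table. Clustered genes share sequence, and in the alpha and gamma arrays share their last exons. The sources used here do not give how reads from shared exons were counted, so single values are uncertain and the genes are not independent of each other. In the RefSeq table all 14 alpha members fall under a single gene, Pcdha4. The smallest gene model length compatible with the values was 5241 bases for Pcdha4, 4653 for Pcdhga10 and 2555 for Pcdhb3.

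Each variable exon of the arrays has its own promoter, and many of these carry a conserved element with a CGCT core to which, in mouse and human, CTCF binding is linked. Promoter sequences of RefSeq (build GRCr8, 250 bases before to 50 after the start) were matched for 53 of the 81 members, 32 of them clustered. Over these 32, the most frequent word of 10 letters was GGTGGCGCTG, which holds that core. It occurred in 15 of 17 beta promoters, 0 of 14 gamma promoters and in none of the 21 promoters of members outside the clusters. Searched on both strands, it occurred in 0.251% of all 27457 genes with a promoter in the table. In 14 of the 15 it lay upstream of the start, its first base between 46 and 229 bases before it. The 4 letters of the core alone, on either strand, occurred in 28 of the 32 clustered promoters and in 63.9% of all genes. The core was in 16 of 17 beta and 11 of 14 gamma promoters. Of the 21 promoters of members outside the clusters 17 held it, so it was not particular to the clusters. The word was chosen by its frequency in these promoters, and a match is a description, not a bound site.

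The stretches around the word are shown for the 6 beta genes with the highest mean value that carry it, since they show how much of the element the genes share. The word is in capitals, and all lie on the + strand of rat chromosome 18 (GRCr8), in the order chr18:29379243-29379282, chr18:29302399-29302438, chr18:29285599-29285638, chr18:29478759-29478798, chr18:29431804-29431843 and chr18:29391773-29391812.
Pcdhb9: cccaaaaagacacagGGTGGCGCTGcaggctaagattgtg
Pcdhb5: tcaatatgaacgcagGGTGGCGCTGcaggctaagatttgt
Pcdhb3: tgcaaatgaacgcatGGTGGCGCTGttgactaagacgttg
Pcdhb19: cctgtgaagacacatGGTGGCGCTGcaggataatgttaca
Pcdhb14: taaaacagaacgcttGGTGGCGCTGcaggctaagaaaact
Pcdhb10: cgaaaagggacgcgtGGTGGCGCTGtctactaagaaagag

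Beta genes, each a single exon with its own tail, had a median log2 fold of -0.31 in 19 tested genes. It was -0.69 in 10 tested gamma genes and -0.92 in 4 tested alpha genes. Pcdhb2, Pcdhga1, Pcdhga3, Pcdhga4, Pcdhga8, Pcdha3, Pcdha4 and Pcdha7 passed the minimum through the retina library only. Such genes could enter only with the lower value in eye, so these medians do not rank the arrays. Without the minimum, the median fold lower in eye was 1.23 for beta genes above 0 and 2.18 for alpha genes. In the 20 genes above 0 in both libraries, values ran between 0.732 and 3.01 in eye and between 0.660 and 3.67 in retina. The largest fold lower in eye was 1.72 (Pcdhb4, at 1.11 in eye and 1.90 in retina) and the largest fold higher was 1.23 (Pcdhb20, at 1.14 and 0.924), so that 0 were called. Pcdhb9 had 3.01 in eye and 3.61 in retina, and Pcdhb5 had 2.94 and 3.67. Pcdhb14, Pcdhb19, Pcdhb20 and Pcdhb21 were the 4 with the higher value in eye, each with an interval that held 1. The sign of the first 3 turned with equal summed values, and signs were followed for tested genes only, so not for Pcdhb21. Pcdhb19 had 2.54 in eye and 2.38 in retina, Pcdhb14 had 1.90 and 1.82, and Pcdhb21, below the minimum, had 0.732 and 0.660.

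Pcdhb18 and Pcdhb3 stood next in level. Pcdhb18 had 2.50 in eye and 3.26 in retina, and Pcdhb3 had 2.13 and 3.16. Pcdhb22 had 2.18 in eye and 2.33 in retina, and Pcdhb13 had 1.97 and 2.40. These 4 all had the lower value in eye, as did the remaining tested beta genes. Pcdhb15 had 1.66 in eye and 1.87 in retina, Pcdhb10 had 1.47 and 1.99, and Pcdhb12 had 1.45 and 1.66. Pcdhb11 had 1.29 in eye and 2.15 in retina, Pcdhb8 had 1.19 and 1.83, and Pcdhb7 had 1.10 and 1.81, which put these 3 among the larger beta folds. Pcdhb17 had 1.22 in eye and 1.65 in retina, Pcdhb6 had 1.07 and 1.21, and Pcdhb2 had 0.757 and 1.02. With totals that left out lens genes the sign of Pcdhb6, Pcdhb15 and Pcdhb22 turned. Pcdhb1 was listed at 0 in eye and at 0.00744 in retina, a value that stands for as little as 1 read, and Pcdhb16 was listed at 0 in both libraries. The promoters of Pcdhb1 and Pcdhb15 were the 2 of 17 without the word, and that of Pcdhb16 held it downstream of the start.

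Alpha genes had the lowest summed value of the 3 arrays, which differ in number of genes and in shared exons. The sums therefore do not rank the arrays by expression. All 14 alpha genes had the lower value in eye, by between 1.55-fold and 3.27-fold with a median of 2.18, and all 14 intervals lay below 1. Together they summed to 5.86 in eye and 11.8 in retina. Pcdhac2, an alpha gene of the C type, was the highest, at 1.83 in eye and 3.20 in retina, and held 31.2% of the array's summed value in eye and 27.2% in retina. The other 13 ran between 0.107 and 0.564 in eye and between 0.274 and 1.15 in retina. Pcdha7 was called, at 0.396 in eye and 1.15 in retina, 2.91-fold lower (interval 2.19 to 3.92), but not with 1 added to each value (log2 fold -0.62). Pcdha4 had 0.564 in eye and 1.13 in retina, while Pcdha3 had 0.504 and 1.07. Their ratios as deposited were 2.01-fold and 2.12-fold lower in eye, and neither was called once 0.1 was added (log2 folds -0.89 and -0.95), while Pcdha3 was called with 0.01 added. The other C-type gene, Pcdhac1, was below the minimum at 0.135 in eye and 0.346 in retina, and 10 alpha genes in all were.

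**Figure D4:**
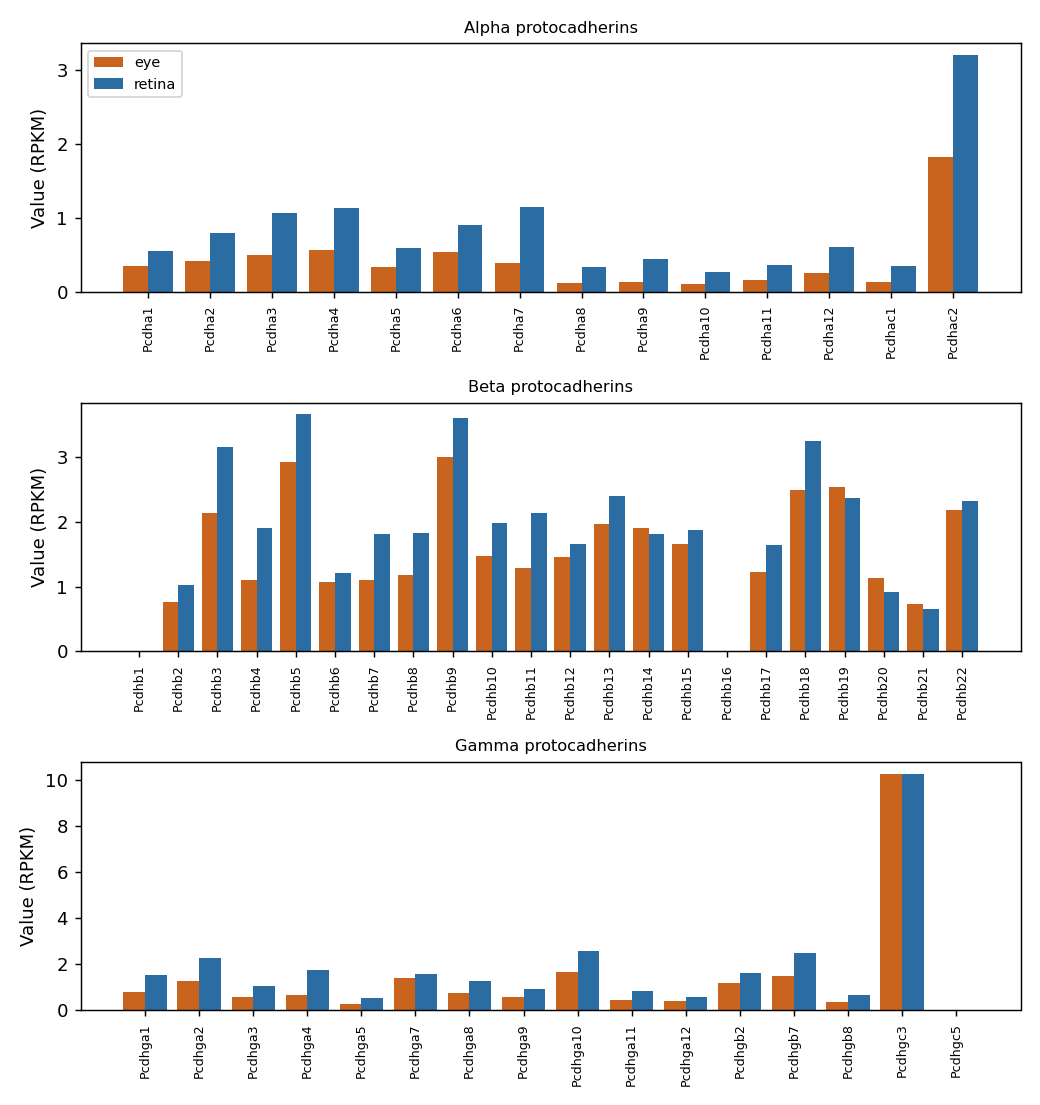
Value of each clustered protocadherin in the eye library (left bar) and the retina library (right bar), in RPKM on linear axes that start at 0 and differ between panels, in order of gene number. Pcdhac2 and Pcdhgc3 stand above the other genes of their arrays, the bars of Pcdhgc3 are of equal height, and Pcdhb1, Pcdhb16 and Pcdhgc5 are at or near 0.

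Pcdhgc3, the broadly expressed C-type gene, had the highest value of any clustered protocadherin, at 10.27 in eye and 10.25 in retina. Its ratio of 1.00 had an interval of 0.936 to 1.07. It held 46.2% of the array's summed value in eye and 34.2% in retina, while Pcdhgc5, also of the C type, was listed at 0 in both libraries. With totals that left out lens genes the log2 fold of Pcdhgc3 was 0.20 and with equal summed values -0.63.

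The 14 gamma genes of types A and B all had the lower value in eye, by between 1.13-fold and 2.54-fold. They summed to 11.9 in eye and 19.8 in retina. The highest of them was Pcdhga10, at 1.67 in eye and 2.59 in retina, followed by Pcdhgb7 at 1.48 and 2.51. Pcdhga2 was at 1.27 in eye and 2.26 in retina. Pcdhga7 differed little, at 1.39 in eye and 1.58 in retina with an interval (0.949 to 1.36) that held 1, and its sign turned with totals that left out lens genes (log2 fold 0.01). Pcdhgb2 was at 1.19 in eye and 1.64 in retina. Pcdhga4 was the gamma gene called, at 0.685 in eye and 1.74 in retina, 2.54-fold lower (interval 1.86 to 3.53), and was not called with 1 added to each value (log2 fold -0.70). Pcdhga1 was at 0.791 in eye and 1.52 in retina, Pcdhga8 at 0.773 and 1.27, and Pcdhga3 at 0.564 and 1.06, and the remaining 6 genes of the array were below the minimum.

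The order of the clustered genes was much the same in both libraries, with a Spearman correlation of 0.95 across the 50 genes above 0, which share libraries, gene structure and reads. Across the 29 members outside the clusters it was 0.80, and across all tested genes 0.83.

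Catenins join classical cadherins to actin, and 2 of the 11 listed linkers were called higher in eye and 0 lower, a share of 18.2% higher that is near the 17.8% of all tested genes. Ctnnb1 (beta-catenin) had 141 in eye and 158 in retina, and this small difference was not called. Jup, plakoglobin of adherens junctions and desmosomes, was 2.64-fold higher in eye (64.4 against 24.4, interval 2.54 to 2.75), and Arvcf, a catenin of the p120 type, 2.57-fold higher (67.2 against 26.2, interval 2.48 to 2.66). Ctnna1, the epithelial alpha-catenin, had 52.4 in eye and 32.0 in retina, and Ctnna2, its neural counterpart, had 23.5 and 20.1. The list's median log2 fold was 0.69, beside -0.01 for all tested genes.

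Among other genes of the cadherin superfamily, 4 of 14 tested were higher in eye and 2 lower, beside 17.8% and 7.95% of all tested genes. The desmosomal cadherins Dsc2, Dsc3 and Dsg3 were at 12.6, 30.9 and 13.6 in eye and at 0.373, 0 and 0.00657 in retina, and Celsr1 was at 1.39 and 0.0981. All 4 genes called higher passed the minimum through the eye library only, so they could enter only with the higher value in eye. Cdhr1, the photoreceptor cadherin at the base of outer segments, was 2.51-fold lower in eye (186 against 467, interval 2.47 to 2.55), and Celsr3 3.49-fold lower (4.81 against 16.8, interval 3.31 to 3.68). The value of Cdhr1 in retina was above that of all 81 members together, which summed to 263. Clstn1 had 163 in eye and 298 in retina, while Clstn3 had 18.7 and 34.0, neither of them called.

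Of 10 genes of chromatin factors linked to protocadherin promoter choice, 1 was lower in eye (the DNA methyltransferase Dnmt3b, at 0.556 in eye and 1.22 in retina) and 0 higher. Dnmt3b passed the minimum through the retina library only, so it could enter only with the lower value in eye. Among all tested genes 7.95% were lower and 17.8% higher. The cohesin subunit gene Rad21 was at 51.6 in eye and 51.5 in retina, Smc1a at 26.4 and 28.1, and Ctcf at 25.1 and 27.9, none of them called.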

How the data were processed

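RNA sequencing values of eye and retina were analysed, grouped by the tissue in the labels. The submitters' processing notes name GSNAP, HTSeq and the genome build rn4, but the sources used here give no versions, settings, annotation or strand use. The deposited values are taken as RPKM, inferred from the values. Library totals were found by a vote over whole reads and lengths (151 and 147 of 1550 short genes gave whole reads in eye and retina at their reference span, against 71 and 74 for the next smaller multiple). Whole reads were then recovered for 13980 of 13980 genes searched, as the smallest that match, which make up 71.4% of the total in eye and 63.7% in retina, and folds were given exact 95% Clopper-Pearson intervals. The recovery was tested on simulated data.

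Each file held 14533 rows. The 7 rows marked ND were dropped, and of 41 names on several rows the row with most decimals was kept. The fold was log2((eye + 0.1)/(retina + 0.1)), for the 13259 genes that reached 1 in at least 1 library. Adding 0.1 understates the folds of low genes; folds of named genes are ratios of the values as deposited. With 1 column per tissue, no test was run. Members and lists (16 lists of partners and cell type markers) were chosen with earlier results of these data known. Members with a value of at least 1 were to be named, and of other lists the 3 genes with the highest mean. Python 3.11.15, pandas 2.3.3, numpy 2.4.6, scipy 1.17.1 and matplotlib 3.10.9 were used. Added values, minima, fold thresholds, scalings and row choices were varied.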

Additional observations from a re-analysis of the deposited data

How the results depend on the processing

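With 1 added to each value 3 members were lower in eye, fewer than the 6 reported, beside 4.94% of all tested genes. A minimum of 5 gave 3 (8.19% of all tested genes) and a 4-fold threshold 0 (0.0905%). Once both libraries were scaled to the same sum, 29 members were lower (32.2% of all tested genes). Of the 3 higher members, 1 passed a 4-fold threshold, beside 9.07% of all tested genes. Other settings gave between 2 and 4, beside 11.5% to 21.2% of all tested genes. The members' median log2 fold of -0.40 became -0.27 with 1 added, -0.14 at a minimum of 5 (15 members), -0.22 when totals left out lens genes and -1.0 when sums were made equal. Set against the median over all genes it was -0.39, and the same difference was -0.40 without lens genes, -0.36 with equal sums, -0.26 with 1 added and -0.08 at a minimum of 5. Adding more pulls low folds toward 0, a higher minimum tests fewer genes, and scaling moves every ratio. Adding 0.01, a trimmed mean, a median of ratios, leaving out rows of few decimals and averaging rows of a name moved neither count by over 1.5 times. No called member changed direction. With 1 pool per tissue the spread between animals is unknown, and alpha genes rest on as few as 6 recovered reads in eye and 31 in retina (Pcdha8). The smallest compatible gene model length was 1749 bases for Pcdha8 and 5241 for Pcdha4, so the real reads of Pcdha8 may be a multiple of these. No paired analysis was possible because each tissue has a single column of values, so no replicate could be left out either.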

Other observations

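Nectins and nectin-like molecules are immunoglobulin-type partners of cadherin junctions, and of 7 listed genes 0 were called in either direction. For this and the lists below, 17.8% of all tested genes were higher and 7.95% lower. Cadm3 was at 66.7 in eye and 120 in retina, Cadm1 at 60.1 and 75.0, and Pvrl1 at 26.6 and 43.0, and the list's median log2 fold was -0.63. Of 10 genes for cytoplasmic partners of protocadherins, 1 was higher in eye (the kinase gene Ptk2b, at 3.97 in eye and 1.62 in retina) and 0 lower. Cyfip2, a subunit gene of the WAVE actin regulator, had 48.9 in eye and 96.5 in retina and was not called, and the list's median log2 fold was 0.12. Nckap1, of the same complex, had 71.2 in eye and 47.9 in retina, whereas the phosphatase gene Ppp1ca had 133 and 91.7. Of 6 Mueller glia markers, 1 was higher in eye (Vim, at 499 in eye and 187 in retina) and 0 lower.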
